A study of Mus musculus with 9 samples.

Results

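The genes described here are 10 markers and regulators of the oligodendrocyte lineage, chosen by name: Pdgfra, Cspg4, Olig1, Olig2, Sox10, Nkx2-2, Myrf, Enpp6, Bcas1 and Gpr17. All 10 are among the 23412 gene symbols of the expression table, and all 10 passed the filter on low values that 14336 symbols passed. RNA was sequenced from the hippocampus of wild-type mice at postnatal day 21, in 9 libraries of 3 groups. The PFOS P8-14 group (3 libraries) came from pups nursed on days 8 to 14 by dams given 1 mg/kg body weight of PFOS by gavage each day. The PFOS P1-7 group (3 libraries) came from pups nursed by such dams on days 1 to 7, and the control group (3 libraries) was sham treated. PFOS (perfluorooctane sulfonate) is a persistent perfluorinated surfactant, which reached the pups through milk. The labels give no strain, litter, sex or batch and do not say whether each library is 1 animal, so p-values measure only the spread between these libraries, which may be partly technical.

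Oligodendrocytes make the myelin sheaths of the central nervous system. They arise from proliferating precursor cells, which pass through a committed, newly formed stage before they mature, and in the rodent hippocampus much of this maturation falls in the first weeks after birth. The members mark successive steps. Pdgfra encodes the receptor for the mitogen PDGF and Cspg4 the proteoglycan NG2, both on the precursor surface. Olig1, Olig2, Sox10 and Nkx2-2 encode transcription factors of the lineage. Gpr17, a receptor gene, and Bcas1 and Enpp6 (a choline-specific phosphodiesterase gene) mark committed and newly formed cells, and Myrf encodes the transcription factor that switches on the myelin genes. Pdgfra is also expressed in fibroblasts, and Cspg4 in the mural cells of vessels.

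Enpp6 (chr8:46939197-47096762, mm10) was the 1 member whose exposed and control libraries did not overlap, and Pdgfra (chr5:75151322-75198206) was the member whose result turned most on 1 library. The 250 bases before their start sites in the RefSeq promoter table (GRCm38.p6) are shown because these are the genes on which the comparisons turn. Both windows lie inside the span of the gene given above, which begins at an earlier RefSeq start. Windows were matched for 5 of the 10 members, and in 2 of those windows the GENCODE annotation places no exon. Capitals mark matches to the motifs searched on both strands. These were the E-boxes CAGCTG and CAGATG, which basic helix-loop-helix factors such as the Olig proteins bind, AACAAT and AACAAAG, which fit the SOX type, and CTGGCAC, a form of the Myrf motif; no matches overlap in these windows. The Enpp6 window runs on the + strand at chr8:46986637-46986886 and the Pdgfra window on the + strand at chr5:75152001-75152250.
Enpp6: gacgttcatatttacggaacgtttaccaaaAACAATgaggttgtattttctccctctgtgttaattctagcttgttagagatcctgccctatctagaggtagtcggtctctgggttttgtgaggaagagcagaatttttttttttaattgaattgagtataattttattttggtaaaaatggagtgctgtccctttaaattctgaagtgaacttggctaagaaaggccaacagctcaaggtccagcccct
Pdgfra: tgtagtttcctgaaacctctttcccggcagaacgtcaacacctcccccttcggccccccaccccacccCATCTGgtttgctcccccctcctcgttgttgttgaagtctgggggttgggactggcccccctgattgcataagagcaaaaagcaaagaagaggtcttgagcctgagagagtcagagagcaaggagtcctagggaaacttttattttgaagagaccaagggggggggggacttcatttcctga
The Enpp6 window held 1 match to AACAAT, which 9.42% of 32851 windows of this length hold. The Pdgfra window held 1 match to CAGATG, on the reverse strand, which 14.4% hold. The other motifs had no match in these letters, against 13.0% of windows with CAGCTG, 5.03% with AACAAAG and 4.19% with CTGGCAC.

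Values are TPM, a relative abundance which the authors scaled for transcript length and to the same sum in each library. The number of reads behind a TPM value cannot be recovered, so depth is unknown and no counting interval can be given. Log2 differences were fitted with limma on log2(TPM + 1) over all 14336 genes, which understates the change of low genes, and adjusted p-values are Benjamini-Hochberg values over all of these genes, called below 0.05. Libraries fell into classes by choroid plexus content: Ttr, a choroid plexus transcript, stood at 9446 to 11626 TPM in 5 libraries and at 35.1 to 107.7 TPM in the other 4. The 5 are PFOS P8-14 replicates 1 and 2, PFOS P1-7 replicates 1 and 3, and control replicate 3. Deviations of genes from their means also ran with the length of their longest transcript, with Spearman's rho across genes from -0.19 to 0.30 in PFOS P8-14 libraries, 0.12 to 0.46 in PFOS P1-7 libraries and -0.50 to 0.19 in controls, where control replicate 1 alone was positive. RNA of Prox1, a dentate granule neuron gene, was present in every library, at 40.2 to 48.4 TPM in PFOS P8-14, 45.7 to 51.5 TPM in PFOS P1-7 and 17.1 to 49.7 TPM in control libraries. Prox1 was lowest in control replicate 3, where the 13 hippocampal neuron markers also had their lowest mean log2 deviation (-0.23). Oligodendrocyte RNA was present in every library, where Mbp, the myelin basic protein gene, ranged from 5606 to 10585 TPM over the 9 libraries.

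Over the 9 libraries the transcription factor gene Olig1 was the most abundant member at 247 ± 29.9 TPM (SD, n = 9), and Nkx2-2 the least at 9.21 ± 1.37 TPM. Between them stood Bcas1 at 169 ± 23.7, Gpr17 at 117 ± 11.0, Sox10 at 73.6 ± 8.00, Olig2 at 51.9 ± 4.55, Myrf at 40.9 ± 7.66, Pdgfra at 33.8 ± 6.38, Enpp6 at 26.3 ± 3.65 and Cspg4 at 12.3 ± 1.82 TPM. Neighbours in this order overlapped in range over the libraries, except that every Gpr17 value lay above every Sox10 value and every Enpp6 value above every Cspg4 value. The highest library exceeded the lowest by a factor of 1.31 for Gpr17 and of up to 1.87 for Myrf.

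**Figure D1:**
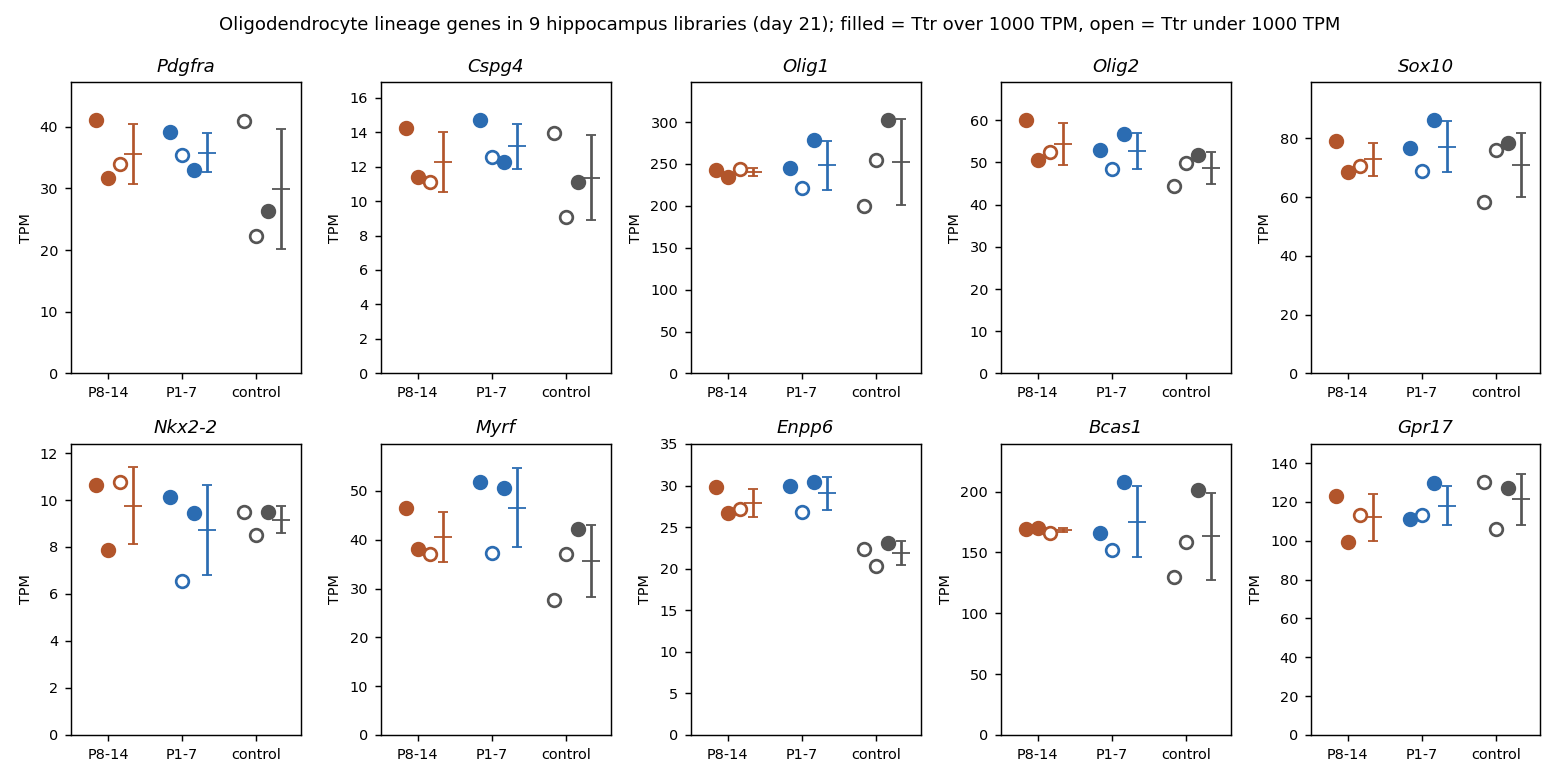
TPM of the 10 oligodendrocyte lineage genes in each library, by group on the x axis (PFOS P8-14, PFOS P1-7, control), with the group mean and SD (n = 3) beside the points; filled points are libraries with Ttr over 1000 TPM and open points those under. The 6 Enpp6 points of the exposed groups lie between 26.7 and 30.5 TPM, above the 3 control points, and the Pdgfra points of control replicates 2 and 3 lie below all others.

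No member passed the threshold against control. Limma called 0 of the 10 members in PFOS P8-14 against control and 0 of 10 in PFOS P1-7 against control, where 0% of all tested genes were called in each comparison. At an unadjusted p below 0.05, 1 of 10 members was higher and 0 were lower in PFOS P8-14, against 6.33% and 4.65% of all genes. In PFOS P1-7 it was 1 higher and 0 lower, against 12.5% and 5.79% of all genes, so the share of members is near that of all genes. In both cases the member was Enpp6. Over the 10 members, the median difference on the log2 scale was 0.09 in PFOS P8-14, where that of all tested genes was 0.06, and 0.12 in PFOS P1-7, where that of all genes was 0.09. Of the 10 members, 8 had a positive difference in PFOS P8-14 (62.1% of all genes) and 7 in PFOS P1-7 (65.5%). These medians depended on the libraries and on the length trend. With 1 library left out in turn they ranged from 0.036 to 0.18 in PFOS P8-14 and from 0.034 to 0.21 in PFOS P1-7, and the lowest values came without the first PFOS P8-14 replicate and without the first control. Removal of the length trend alone gave medians of 0.038 and 0.055, with 7 and 6 of 10 members higher. In that fit 47.6% and 49% of all genes were higher. At an unadjusted p below 0.05, 1 member was then higher and 1 lower in each comparison. Of all 14336 genes, 525 were then higher and 896 lower in PFOS P8-14, and 772 higher and 1163 lower in PFOS P1-7. Removal of the length trend together with control replicate 1 turned the medians to -0.10 and -0.064, with 4 and 3 of 10 members higher. In that setting 47.9% and 48.2% of all genes were higher. The exposed groups share the same 3 controls, so their values are not independent of each other.

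Enpp6 stood at 29.8, 26.7 and 27.2 TPM in the PFOS P8-14 libraries, 30.0, 26.8 and 30.5 TPM in the PFOS P1-7 libraries and 22.3, 20.3 and 23.1 TPM in the controls. The lowest exposed library was above the highest control, and the exposed groups overlapped with each other. The PFOS P8-14 mean was 27.9 ± 1.69 TPM against 21.9 ± 1.44 TPM in control (SD, n = 3 each), a log2 difference of 0.33 (SE 0.09; 95% interval 0.13 to 0.54; limma adjusted p = 0.426). The PFOS P1-7 mean was 29.1 ± 2.01 TPM against the same control mean, a log2 difference of 0.39 (SE 0.09; 95% interval 0.19 to 0.60; limma adjusted p = 0.181). These p-values ranked 146th and 111th of 14336 genes. Groups that do not overlap in this direction occurred for 7.31% of genes in PFOS P8-14 against control, for 12.3% in PFOS P1-7 against control, and for 4.85% with all 6 exposed libraries above all 3 controls. No member lay below its controls without overlap, which 5.99% of genes did in PFOS P8-14 and 6.56% in PFOS P1-7. A change in the number of cells of a type and a change in RNA per cell cannot be told apart in bulk tissue. This limit holds for every member.

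Since no exposed library overlapped with a control, any split of the libraries keeps this order, and the values by choroid plexus class are a description with as few as 1 library per group. Among libraries rich in Ttr, Enpp6 stood at 26.7 and 29.8 TPM in PFOS P8-14 and at 30.0 and 30.5 TPM in PFOS P1-7, against 23.1 TPM in the 1 control. Among those poor in Ttr it stood at 27.2 TPM in the 1 PFOS P8-14 and 26.8 TPM in the 1 PFOS P1-7 library, against 20.3 and 22.3 TPM in the 2 controls. With the class as a covariate the log2 differences were 0.30 and 0.36 (limma adjusted p = 0.257 and 0.114). With each library's trend on transcript length removed they were 0.22 and 0.23 (limma adjusted p = 0.492 and 0.332), so 0.33 and 0.39 came down by over 1.5 times, while the direction held.

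Without control replicate 1 Enpp6 was called in PFOS P1-7 (0.41, limma adjusted p = 0.0246) and just missed the threshold in PFOS P8-14 (0.35, adjusted p = 0.0507). In that fit 18.5% of all genes were called in PFOS P1-7 and 12.1% in PFOS P8-14. With array weights, which give control replicate 1 the lowest weight of the 9 libraries (0.248), Enpp6 was called in both (0.33 and 0.42, adjusted p = 0.0451 and 0.0154), as were 7.35% and 20.3% of all genes. When the length trend was removed as well as control replicate 1, the differences were 0.16 and 0.17 and the calls were lost (adjusted p = 0.347 and 0.310).

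The ratio of Enpp6 was also taken within libraries to Gpr17, which marks the preceding committed stage. A ratio of TPM within a library does not depend on the scaling between libraries. The ratio of Enpp6 to Gpr17 was 0.239 to 0.268 in PFOS P8-14, 0.235 to 0.269 in PFOS P1-7 and 0.171 to 0.191 in control libraries, without overlap between exposed and control. The pair was chosen after its values were seen. Of the 9 other members as denominators, 2 gave no overlap, Gpr17 and Nkx2-2. Of 14212 genes above 0 in every library, 34.1% did.

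**Figure D2:**
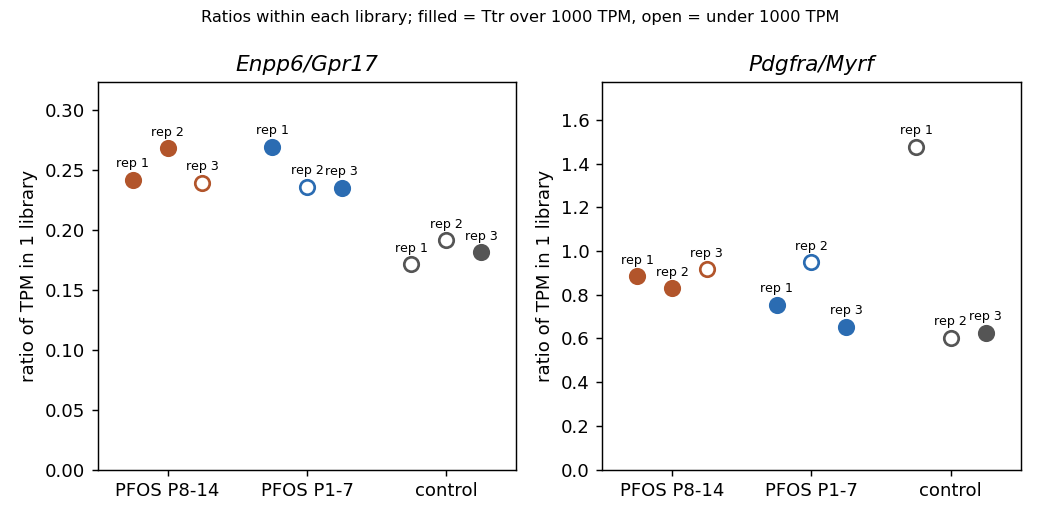
Ratio of the TPM of Enpp6 to Gpr17 (left) and of Pdgfra to Myrf (right) in each library, by group on the x axis, with replicates numbered; filled points are libraries with Ttr over 1000 TPM. The 6 exposed libraries lie above the controls for Enpp6/Gpr17, whereas for Pdgfra/Myrf control replicate 1 lies at 1.48, far above control replicates 2 and 3.

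Gpr17 itself (chr18:31942999-31949890) did not follow Enpp6. It stood at 123, 99.5 and 113 TPM in PFOS P8-14, 111, 113 and 129.6 TPM in PFOS P1-7 and 130.4, 106 and 127 TPM in control libraries, and all groups overlapped. The log2 difference was -0.11 (95% interval -0.36 to 0.13; limma adjusted p = 0.657) in PFOS P8-14 and -0.04 (-0.28 to 0.21; adjusted p = 0.872) in PFOS P1-7. Over all settings it ranged from -0.26 to -0.031 in PFOS P8-14 and from -0.23 to 0.050 in PFOS P1-7, and Gpr17 was called in 0 of them.

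Bcas1 (chr2:170343973-170427911), a gene of newly formed myelinating cells, stood at 169, 169.8 and 166 TPM in PFOS P8-14, 166, 152 and 208 TPM in PFOS P1-7 and 130.1, 159 and 201 TPM in control libraries. The PFOS P8-14 libraries were nearly equal and lay inside the control range. The log2 differences were 0.07 (95% interval -0.28 to 0.41) in PFOS P8-14 and 0.11 (-0.23 to 0.46) in PFOS P1-7 (limma adjusted p = 0.863 and 0.696). Without control replicate 1, the lowest library, these turned to -0.084 and -0.039.

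Myrf (chr19:10208271-10240777) had a difference close to that of Enpp6 in PFOS P1-7, with a wider spread. It stood at 46.4, 38.2 and 37.1 TPM in PFOS P8-14, 51.9, 37.4 and 50.5 TPM in PFOS P1-7 and 27.7, 37.0 and 42.2 TPM in control libraries. PFOS P1-7 replicates 1 and 3 exceeded every control, and PFOS P1-7 replicate 2 lay within the control range. The log2 difference was 0.20 (95% interval -0.19 to 0.58; limma adjusted p = 0.627) in PFOS P8-14 and 0.38 (-0.0030 to 0.77; adjusted p = 0.276) in PFOS P1-7. Without control replicate 1 and with the length trend removed, the differences were -0.20 and -0.06 (adjusted p = 0.498 and 0.853).

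**Figure D3:**
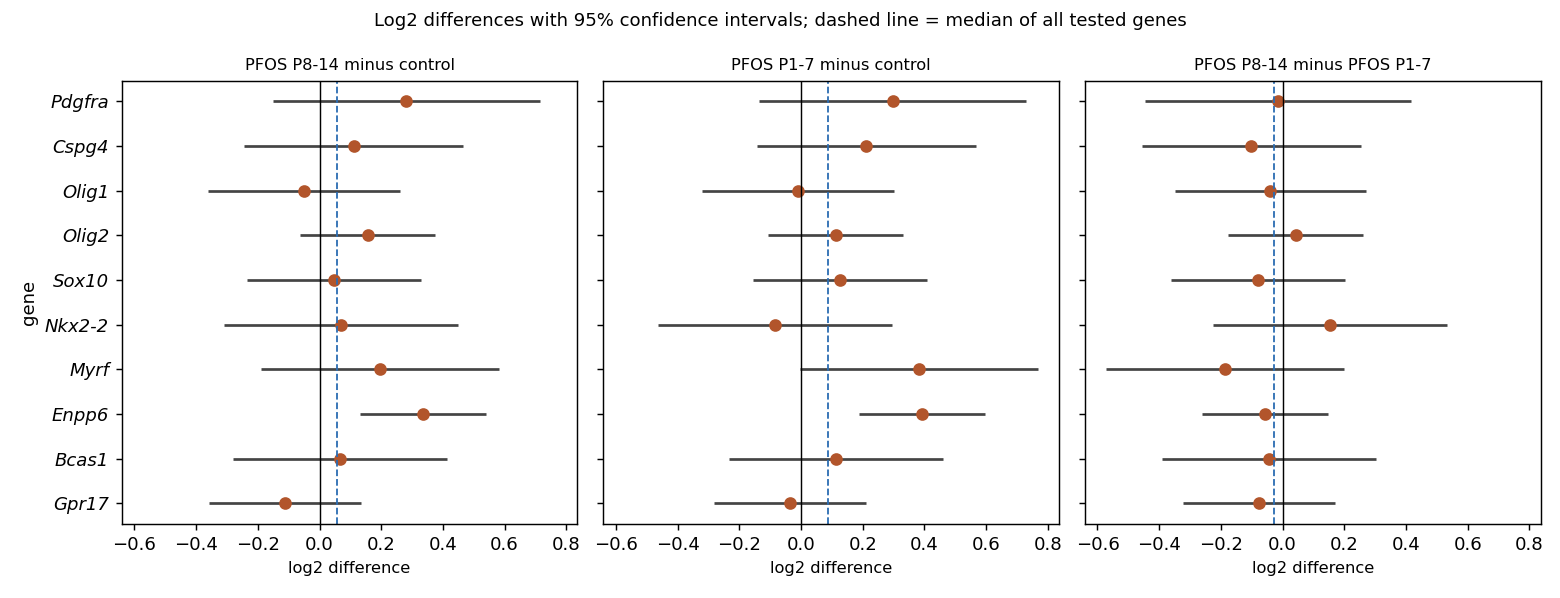
Log2 differences of the 10 members (points) with 95% confidence intervals (lines) in PFOS P8-14 minus control, PFOS P1-7 minus control and PFOS P8-14 minus PFOS P1-7; the dashed line is the median of all 14336 tested genes. The Enpp6 intervals against control, 0.13 to 0.54 and 0.19 to 0.60, are the ones that leave out 0.

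Among precursor genes, Pdgfra stood at 41.0, 31.7 and 34.0 TPM in PFOS P8-14, 39.1, 35.4 and 33.0 TPM in PFOS P1-7 and 40.9, 22.3 and 26.4 TPM in control libraries. Control replicate 1 lay among the highest exposed libraries, and control replicates 2 and 3 lay below all 6. The means were 35.6 ± 4.88 TPM in PFOS P8-14, 35.8 ± 3.08 TPM in PFOS P1-7 and 29.9 ± 9.76 TPM in control (SD, n = 3 each). The log2 difference was 0.28 (95% interval -0.15 to 0.71; limma adjusted p = 0.550) in PFOS P8-14 and 0.30 (-0.14 to 0.73; adjusted p = 0.412) in PFOS P1-7.

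Single control libraries decided the Pdgfra result. Without control replicate 1 Pdgfra was called in both comparisons, with log2 differences of 0.52 and 0.54 (limma adjusted p = 0.0342 and 0.0232). In that fit 12.1% and 18.5% of all genes were called. Without control replicate 2 the Pdgfra differences were 0.10 and 0.12 (adjusted p = 0.915 and 0.809). Without PFOS P8-14 replicate 1, the highest library, the PFOS P8-14 difference was 0.18. With array weights the differences were 0.43 and 0.47, of which the one in PFOS P1-7 was called (adjusted p = 0.0749 and 0.0398), as were 20.3% of all genes. With the length trend removed and all libraries kept they were 0.11 and 0.06, and with control replicate 1 left out too they were 0.24 and 0.20 (adjusted p = 0.266 and 0.356).

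Cspg4 (chr9:56865104-56899870) ran with Pdgfra from library to library. It stood at 14.3, 11.4 and 11.1 TPM in PFOS P8-14, 14.7, 12.6 and 12.2 TPM in PFOS P1-7 and 14.0, 9.05 and 11.1 TPM in control libraries. Control replicate 2 was the lowest of the 9 libraries for both genes. The log2 difference was 0.11 (95% interval -0.24 to 0.47; limma adjusted p = 0.771) in PFOS P8-14 and 0.21 (-0.14 to 0.57; adjusted p = 0.470) in PFOS P1-7, and with the length trend removed the values were -0.10 and -0.05.

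Both precursor genes have other sources in this tissue. The 11 mural cell markers, of which Pdgfrb is a defining one, summed to 189 to 215 TPM in PFOS P8-14, 169.9 to 204 TPM in PFOS P1-7 and 162 to 234 TPM in control libraries. The 9 fibroblast markers, Col1a1 among them, summed to 95.7 to 177 TPM in PFOS P8-14, 94.6 to 121 TPM in PFOS P1-7 and 80.7 to 158 TPM in control libraries. Their mean log2 deviation was highest in PFOS P8-14 replicate 1 (0.56) and control replicate 1 (0.25), where Pdgfra was also highest. That of the mural markers was 0.23 and 0.14 in these libraries. It was -0.074 in PFOS P1-7 replicate 1, where Cspg4 was highest. No marker of either list was at 0 in every library, and their part in the Pdgfra and Cspg4 values was not tested.

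The 4 lineage transcription factor genes stayed close to control. Olig2 (chr16:91225550-91228677), required for lineage specification, stood at 60.0, 50.6 and 52.5 TPM in PFOS P8-14, 52.9, 48.5 and 56.8 TPM in PFOS P1-7 and 44.3, 49.9 and 51.8 TPM in control libraries, with overlap of both exposed groups with control. The log2 difference was 0.16 (95% interval -0.06 to 0.37; limma adjusted p = 0.528) in PFOS P8-14 and 0.11 (-0.11 to 0.33; adjusted p = 0.527) in PFOS P1-7. Its neighbour Olig1 (chr16:91269769-91271939), which promotes maturation and repair, stood at 243, 235 and 244 TPM in PFOS P8-14, 245, 221 and 279 TPM in PFOS P1-7 and 200.2, 255 and 302 TPM in control libraries. The control range of Olig1 enclosed all 6 exposed libraries, and the log2 differences were -0.05 (95% interval -0.36 to 0.26) and -0.01 (-0.32 to 0.30), with limma adjusted p = 0.887 and 0.973. Without control replicate 3, the highest library, these turned to 0.089 and 0.13.

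Sox10 (chr15:79154913-79164490), which drives the lineage and its myelin genes, stood at 79.2, 68.6 and 70.6 TPM in PFOS P8-14, 76.6, 68.9 and 86.1 TPM in PFOS P1-7 and 58.4, 76.0 and 78.4 TPM in control libraries. Control replicate 1 was the lowest and the groups overlapped. The log2 differences were 0.05 (95% interval -0.24 to 0.33) and 0.13 (-0.15 to 0.41), with limma adjusted p = 0.885 and 0.582. Without control replicate 1 they turned to -0.086 and -0.0053, and with the length trend removed as well to -0.13 and -0.068. The Sox10 difference in PFOS P8-14 was below 0 in 6 of the 17 alternative settings. Nkx2-2 (chr2:147176485-147195434), which acts in the step from precursor to differentiating cell, stood at 10.6, 7.86 and 10.8 TPM in PFOS P8-14, 10.2, 6.54 and 9.46 TPM in PFOS P1-7 and 9.47, 8.53 and 9.51 TPM in control libraries. Its log2 differences were 0.07 (95% interval -0.31 to 0.45) and -0.08 (-0.46 to 0.29), with limma adjusted p = 0.871 and 0.795. The intervals of these 4 genes all include 0 and reach as far as -0.46 and 0.45 for Nkx2-2, so they do not show that the levels were equal.

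Control replicates 1 and 2 held the lowest values of most members, in different genes. In control replicate 1 the precursor genes were high, with Pdgfra 0.29 and Cspg4 0.19 above their means over the 9 libraries on the log2(TPM + 1) scale. In the same library Myrf was 0.52, Bcas1 0.36, Sox10 0.32 and Olig1 0.29 below theirs. Of the 10 members, 5 were at their lowest in control replicate 1 (Olig1, Olig2, Sox10, Myrf and Bcas1) and 3 in control replicate 2 (Pdgfra, Cspg4 and Enpp6). The ratio of Pdgfra to Myrf was 0.830 to 0.917 in PFOS P8-14 and 0.653 to 0.948 in PFOS P1-7 libraries, against 1.48, 0.604 and 0.625 in control replicates 1, 2 and 3. The 24 mature oligodendrocyte and myelin genes summed to 16332 to 17929 TPM in PFOS P8-14, 14518 to 20903 TPM in PFOS P1-7 and 10706 to 17520 TPM in control libraries. Their mean log2 deviation was 0.060, 0.0091 and -0.0012 in PFOS P8-14 replicates 1 to 3, 0.10, -0.16 and 0.31 in PFOS P1-7 replicates 1 to 3, and -0.60, 0.15 and 0.12 in control replicates 1 to 3. Control replicates 2 and 3 thus lay above all 3 PFOS P8-14 libraries. The 16 other precursor genes had their highest mean deviation in control replicate 1 (0.26) and their lowest in control replicate 2 (-0.32). The part of these list levels in the member differences was not tested.

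**Figure D4:**
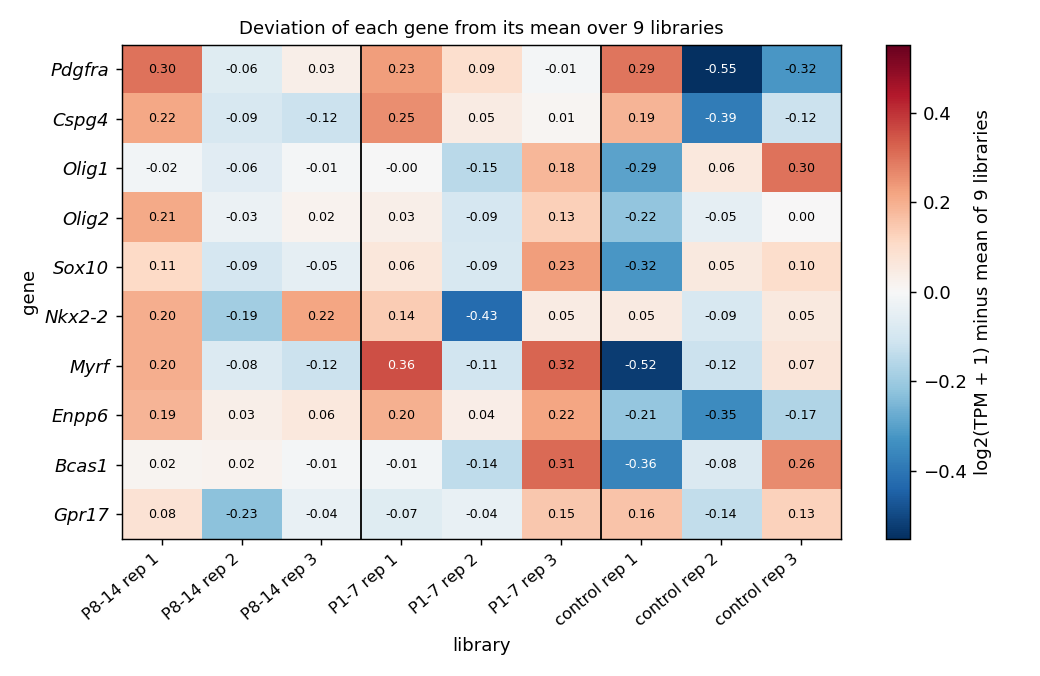
Deviation of each member (rows) from its mean over the 9 libraries (columns, grouped as PFOS P8-14, PFOS P1-7 and control), on the log2(TPM + 1) scale, with red above and blue below the mean. In control replicate 1 Pdgfra and Cspg4 are above their means (0.29 and 0.19) while Myrf, Bcas1 and Sox10 are below (-0.52, -0.36 and -0.32).

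The direct comparison of exposure windows found no member that differed. Limma called 0 of 10 members and 0% of all genes in PFOS P8-14 against PFOS P1-7, and 0 of 10 members had an unadjusted p below 0.05, against 0.467% of all genes higher and 0.635% lower. Groups did not overlap for 0 of 10 members, against 1.9% of all genes higher and 4.15% lower. Over the members, the median difference was -0.05, where that of all genes was -0.03. Enpp6 differed by -0.06 (95% interval -0.26 to 0.15) and Pdgfra by -0.01 (-0.45 to 0.42). The differences farthest from 0 were those of Myrf at -0.19 (-0.57 to 0.20) and Nkx2-2 at 0.15 (-0.22 to 0.53), and the other 6 members lay between -0.10 and 0.04. The limma adjusted p was 0.9998 for each of the 10, and every interval includes 0.

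Other genes of the lineage were read from lists in the same fit, and none of them passed the threshold. Of 16 other precursor genes, 11 were higher than control in PFOS P8-14 and 11 in PFOS P1-7, with medians of 0.04 and 0.08 where those of all genes were 0.06 and 0.09. At an unadjusted p below 0.05, 2 of these were higher in each, where 6.33% and 12.5% of all genes were. The medians were 0.24 and 0.17 without control replicate 1, and -0.02 and -0.04 without control replicate 2. With the length trend removed, 7 and 8 of the 16 were higher, with medians of -0.064 and 0.015. At an unadjusted p below 0.05, 1 was then higher and 0 lower in PFOS P8-14, and 0 were higher and 4 lower in PFOS P1-7. Of all 14336 genes, 525 were then higher and 896 lower in PFOS P8-14, and 772 higher and 1163 lower in PFOS P1-7. Sema5a, a guidance molecule gene, stood at 42.6 ± 2.99 TPM in PFOS P8-14, 43.5 ± 2.31 TPM in PFOS P1-7 and 32.3 ± 7.77 TPM in control (SD, n = 3 each), and Lhfpl3, a marker of precursors, at 25.6 ± 2.31, 25.6 ± 1.85 and 20.9 ± 2.45 TPM in the same groups. The third gene of the list by p was Sox6, a transcription factor gene of precursors, at 6.35 ± 0.851 TPM in PFOS P8-14, 7.07 ± 1.10 TPM in PFOS P1-7 and 5.38 ± 1.14 TPM in control. Sema5a stood at 41.2 TPM in control replicate 1, within the range of the exposed libraries. The Sema5a differences of 0.41 and 0.44 were 0.16 and 0.15 with the length trend removed, and those of Sox6, 0.21 and 0.34, were -0.0069 and 0.074.

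Of 15 other genes of committed and newly formed cells that were tested, 9 were higher in PFOS P8-14 and 9 in PFOS P1-7, with medians of 0.16 and 0.20, where 62.1% and 65.5% of all genes were higher. Of the 15, 3 and 4 were higher at an unadjusted p below 0.05, against 6.33% and 12.5% of all genes. Their medians were -0.02 and 0.04 once the length trend was removed, where those of all genes were -0.0097 and -0.0050. At an unadjusted p below 0.05, 2 of the 15 were then higher and 0 lower in each comparison. Of all 14336 genes, 525 were then higher in PFOS P8-14 and 772 in PFOS P1-7. Gpr37, a receptor gene of maturing oligodendrocytes, stood at 63.1 ± 1.47 TPM in PFOS P8-14, 69.8 ± 5.52 TPM in PFOS P1-7 and 53.1 ± 7.10 TPM in control. Neither exposed group overlapped with control. All 6 exposed libraries lay above all 3 controls for 4.85% of all genes. The Gpr37 differences of 0.25 and 0.39 were -0.034 and 0.061 without the length trend and control replicate 1. Sirt2, a deacetylase gene, stood at 705 ± 36.0, 721 ± 88.0 and 573 ± 80.1 TPM in the same groups, and Casr, the calcium-sensing receptor gene, at 3.97 ± 0.431, 4.25 ± 0.887 and 2.46 ± 1.00 TPM. Of 23 mature oligodendrocyte genes tested, 20 and 21 were higher, with medians of 0.13 and 0.19, but control replicate 1 alone decided this direction. Without it 5 and 7 of the 23 were higher, and the medians were -0.15 and -0.05. At an unadjusted p below 0.05, 1 gene of the list was higher in each comparison with all libraries kept, against 6.33% and 12.5% of all genes. That gene was Adamts4, a protease gene, at 53.1 ± 7.04 TPM in PFOS P8-14, 59.5 ± 8.54 TPM in PFOS P1-7 and 41.0 ± 2.81 TPM in control. Mbp had 8753 ± 604 TPM in PFOS P8-14, 9204 ± 1586 TPM in PFOS P1-7 and 7105 ± 1469 TPM in control, with overlap. Without control replicate 1 and the length trend, the Mbp difference of 0.32 in PFOS P8-14 became -0.015. Car2, the carbonic anhydrase gene, had 165 ± 17.8, 172 ± 16.6 and 150.2 ± 10.8 TPM.

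Of 26 other transcription and chromatin regulators tested, 23 were higher in PFOS P8-14 and 23 in PFOS P1-7, with medians of 0.15 and 0.25, where 62.1% and 65.5% of all genes were higher. Removing the length trend left 15 and 19 higher, with medians of 0.07 and 0.06, where 47.6% and 49% of all genes were higher. At an unadjusted p below 0.05, 4 were higher and 1 lower in PFOS P8-14, and 11 were higher and 1 lower in PFOS P1-7. Over all genes these shares were 6.33% higher and 4.65% lower in PFOS P8-14, and 12.5% and 5.79% in PFOS P1-7. With the length trend removed, 2 were higher and 1 lower in PFOS P8-14, and 4 were higher and 1 lower in PFOS P1-7. Of all 14336 genes, 525 were then higher and 896 lower in PFOS P8-14, and 772 higher and 1163 lower in PFOS P1-7. The lower gene with the length trend kept was Hes5. This Notch effector restrains oligodendrocyte differentiation and is also expressed in astrocytes and neural stem cells. Hes5 stood at 16.3, 16.1 and 15.6 TPM in PFOS P8-14, 15.3, 18.7 and 14.9 TPM in PFOS P1-7 and 22.0, 25.6 and 27.0 TPM in control libraries. The lowest control was above the highest exposed library. Its log2 difference was -0.60 (SE 0.11; limma adjusted p = 0.424) in PFOS P8-14 and -0.58 (SE 0.11; adjusted p = 0.181) in PFOS P1-7. All 6 exposed libraries lay below all 3 controls for 3.44% of tested genes. Id4, an inhibitor of basic helix-loop-helix factors, stood at 68.5 ± 11.0 TPM in PFOS P8-14, 65.2 ± 3.46 TPM in PFOS P1-7 and 50.8 ± 4.77 TPM in control, and Tcf12, a partner of such factors, at 37.7 ± 2.48, 37.0 ± 1.40 and 29.9 ± 1.06 TPM, both without overlap between exposed and control, as for 4.85% of all genes. The Tcf12 differences of 0.32 and 0.30 were 0.16 and 0.080 with the length trend removed, and 0.085 and 0.0030 without control replicate 1 as well. Those of Id4, 0.42 and 0.36, were 0.29 and 0.20 in that last setting.

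Of 36 tested genes of signals that act on the lineage, 30 were higher in each exposed group, with medians of 0.15 and 0.22. Of all genes, 62.1% were higher in PFOS P8-14 and 65.5% in PFOS P1-7. Removing the length trend left 23 higher in each, with medians of 0.04 in both, where 47.6% and 49% of all genes were higher. At an unadjusted p below 0.05, 4 were higher and 0 lower in PFOS P8-14, where 6.33% and 4.65% of all genes were. In PFOS P1-7, 8 were higher and 2 lower, where 12.5% and 5.79% of all genes were. With the length trend removed, 1 was higher and 1 lower in PFOS P8-14, and 4 were higher and 3 lower in PFOS P1-7. Of all 14336 genes, 525 were then higher and 896 lower in PFOS P8-14, and 772 higher and 1163 lower in PFOS P1-7. Erbb3, a neuregulin receptor gene, stood at 10.8 ± 1.61 TPM in PFOS P8-14, 12.3 ± 1.39 TPM in PFOS P1-7 and 7.64 ± 1.65 TPM in control. Chrm3, a muscarinic receptor gene that neurons express too, stood at 39.9 ± 8.06, 46.7 ± 0.581 and 28.8 ± 8.43 TPM in the same groups, and Igf1r, the insulin-like growth factor receptor gene, at 13.4 ± 1.10, 14.9 ± 0.632 and 11.1 ± 1.65 TPM. For these 3 genes the PFOS P1-7 libraries lay above all controls and the PFOS P8-14 libraries overlapped with them. Such a gap in PFOS P1-7 occurred for 12.3% of all genes. The Erbb3 differences of 0.46 and 0.63 were 0.088 and 0.21 without the length trend and control replicate 1, and those of Igf1r, 0.26 and 0.41, were -0.073 and 0.043. The Chrm3 differences of 0.48 and 0.72 were 0.56 and 0.76 in that setting.

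**Figure D5:**
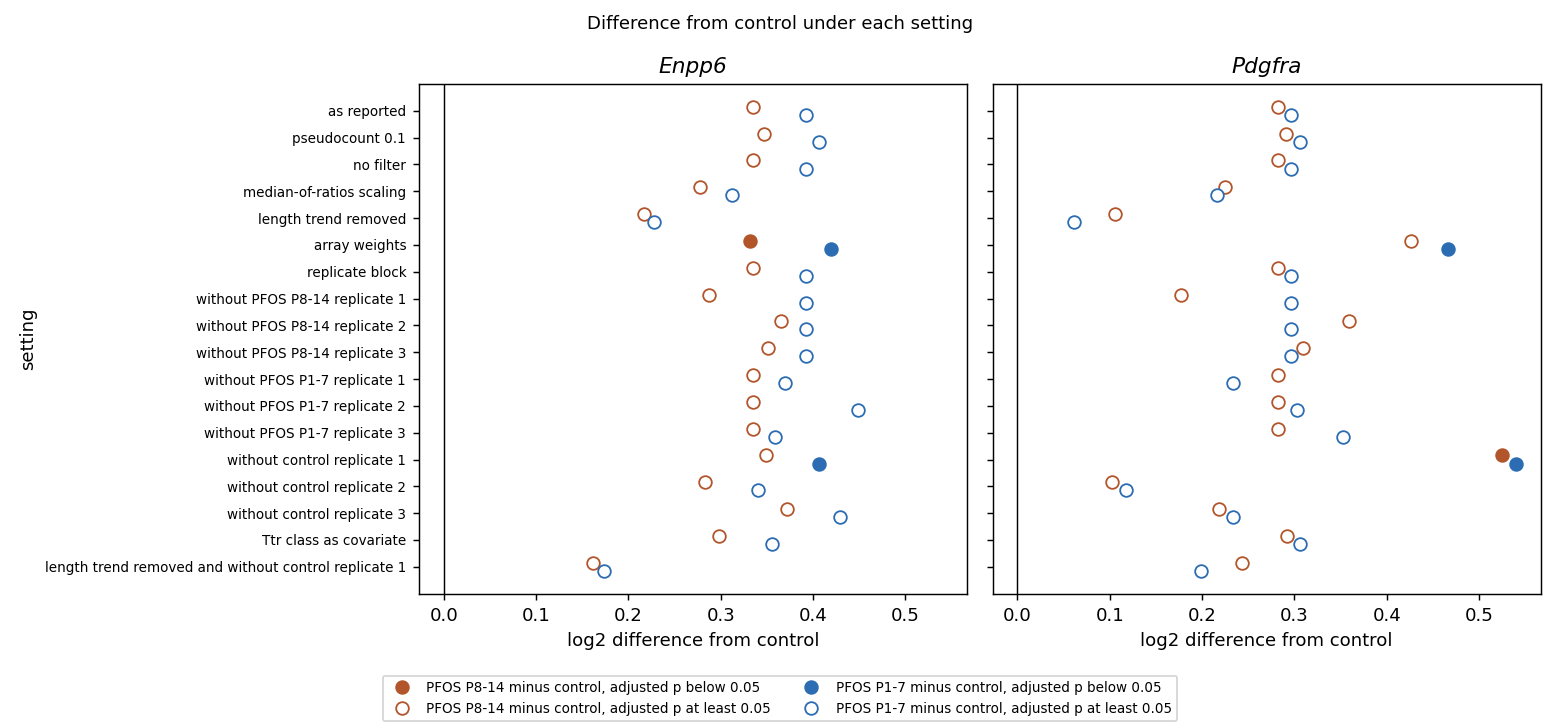
Log2 difference of Enpp6 (left) and Pdgfra (right) from control under each setting on the y axis, for PFOS P8-14 and PFOS P1-7; filled points have a limma adjusted p below 0.05. Enpp6 stays above 0 throughout, with 0.16 as its lowest value, and Pdgfra ranges from 0.06 to 0.54.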

How the data were processed

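RNA was measured in 9 mouse hippocampus libraries (stranded mRNA kit, per the labels' protocols). The authors deposited TPM per gene symbol. The submitters' processing notes name bcl2fastq, fastp 0.21.0, STAR 2.5.3a, RSEM 1.3.3 and mm10. TPM is divided by transcript length and total, so it keeps no depth, and a few abundant transcripts can shift all others. Symbols that reached 1 TPM in 3 or more of the 9 libraries were fitted on log2(TPM + 1) with limma 3.58.1 in R 4.3.3, with 1 mean per group, a mean-variance trend, two-sided tests and Benjamini-Hochberg adjustment over all tested genes. The fit was tested on simulated data. Alternatives were another pseudocount, no filter, median-of-ratios scaling, removal of a loess trend on transcript length (GENCODE M21, the longest transcript, matched for 93.9% of tested genes), array weights, a replicate block and each library left out. The Ttr class covariate, and removal of the length trend together with control replicate 1, and the list counts under these settings and without each control, were added after seeing the data. The members and lists were chosen with earlier results of these data known. All members are named. Of each other list, the 3 genes with the smallest p in an F test among the groups could be named, besides defining markers, and the 5 genes most like each set of members.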

Additional observations from a re-analysis of the deposited data

How the results depend on the processing

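Over 17 alternative settings, 1020 log2 differences of members and named genes were compared, of which 930 kept direction and side of the threshold, 38 became called and 52 changed sign. With array weights limma called 1053 genes in PFOS P8-14 against control, 2914 in PFOS P1-7 against control and 1532 among the 3 groups, with 1 and 2 members called in the comparisons with control. With the length trend and control replicate 1 both removed it called 493, 775 and 345, and the members' median difference was -0.10 and -0.064. With libraries left out in turn, 0 to 1741, 0 to 2658 and 0 to 1493 genes were called, with 0 to 1 and 0 to 2 members; the highest counts came without control replicate 1. The cause was not tested.

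Signs changed in PFOS P8-14 minus control as follows. Sox10 was -0.0121 with median-of-ratios scaling, -0.0120 with the Ttr class as covariate, -0.08 with array weights and -0.13 with the length trend and control replicate 1 removed. Bcas1 was -0.0214 with the Ttr class, -0.0296 with array weights and -0.14 with the last setting. With the length trend removed, Cspg4 was -0.097, Sox6 -0.00691 and Igf1r -0.00490. With control replicate 1 removed too, Cspg4 was -0.079, Myrf -0.20, Sox6 -0.00313, Gpr37 -0.034, Mbp -0.015 and Igf1r -0.073. In PFOS P1-7 minus control, Gpr17 was 0.0496 with array weights and Cspg4 -0.052 with the length trend removed. With control replicate 1 removed too, Cspg4 was -0.034, Sox10 -0.068, Myrf -0.062 and Bcas1 -0.12. In PFOS P8-14 minus PFOS P1-7, Pdgfra was 0.00872 with median-of-ratios scaling and 0.045 with the length trend removed, with or without control replicate 1, and Olig2 was -0.0102 with array weights.

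With libraries left out in turn, signs also changed. In PFOS P8-14 minus control, Cspg4 ranged from -0.029 to 0.26, Olig1 from -0.21 to 0.089, Sox10 from -0.086 to 0.12, Nkx2-2 from -0.0019 to 0.20 and Bcas1 from -0.084 to 0.23. In PFOS P1-7 minus control, Olig1 ranged from -0.17 to 0.13, Sox10 from -0.0053 to 0.20, Nkx2-2 from -0.19 to 0.088, Bcas1 from -0.039 to 0.27 and Gpr17 from -0.13 to 0.019. In PFOS P8-14 minus PFOS P1-7, Pdgfra ranged from -0.12 to 0.062, Olig1 from -0.12 to 0.046, Olig2 from -0.029 to 0.097, Sox10 from -0.16 to 0.00036, Nkx2-2 from -0.018 to 0.29, Bcas1 from -0.14 to 0.084 and Gpr17 from -0.15 to 0.0054.

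With the replicate number as a block, limma called 0 genes and the members' medians were 0.09, 0.12 and -0.05, as without it. Deviations of same-numbered libraries correlated from -0.47 to 0.53, and those of differently numbered ones from -0.60 to 0.67. Choroid plexus content and the length trend also run through these deviations, so they cannot show whether the numbers pair the samples. TPM give no depth, so what depth limits is unknown.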

Other observations

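Markers of other hippocampal cell types were read in the same fit, and limma called 0 of them after adjustment. Of 10 microglia markers, 5 were higher and 5 lower in each comparison, with medians of -0.05 and 0.01. At an unadjusted p below 0.05, 4 were lower and 0 higher in PFOS P8-14, and 4 were lower and 2 higher in PFOS P1-7, where 4.65% and 6.33%, and 5.79% and 12.5%, of all genes were lower and higher. With the length trend removed, 3 were lower and 0 higher in PFOS P8-14, and 2 were lower and 1 higher in PFOS P1-7. Over all 14336 genes, 896 were then lower and 525 higher in PFOS P8-14, and 1163 lower and 772 higher in PFOS P1-7. Cx3cr1, the fractalkine receptor gene that defines microglia, differed by 0.10 and 0.19 on the log2 scale, and its groups overlapped. C1qb, a complement gene, differed from control by -0.43 in PFOS P8-14 and -0.39 in PFOS P1-7 on the log2 scale (limma adjusted p = 0.424 and 0.181), and C1qa by -0.29 and -0.32. Of 13 hippocampal neuron markers, 4 were higher and 0 lower in PFOS P8-14 at an unadjusted p below 0.05, against 6.33% and 4.65% of all genes. In PFOS P1-7, 5 were higher and 1 lower, against 12.5% and 5.79%. With the length trend removed, 1 was higher and 0 lower in PFOS P8-14, and 2 were higher and 1 lower in PFOS P1-7. Dsp, a desmosome gene of dentate granule neurons, differed by 0.45 and 0.63 (limma adjusted p = 0.424 and 0.181). Of 10 astrocyte markers 0 passed in either comparison, and of 10 thalamus markers 1 was higher in PFOS P8-14 while 1 was higher and 1 lower in PFOS P1-7. The thalamus markers had their highest mean log2 deviation in PFOS P8-14 replicate 1 (0.48), where Pdgfra and Olig2 were also highest. The next highest was 0.12 in control replicate 1. All 14 choroid plexus markers had positive differences in both comparisons, with medians of 1.51 and 1.53, and 0 had an unadjusted p below 0.05. Libraries rich in Ttr were 2 of 3 in each exposed group and 1 of 3 in control. The part of this mix in the marker differences was not tested.

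Likeness in level over the 9 libraries was measured against 14326 genes, as Pearson's r of log2(TPM + 1). The libraries share their length trends and their choroid plexus content, and r is a description. The mean deviation of Pdgfra and Cspg4 was most like Mybbp1a (r = 0.98), followed by Midn, Ogdh, Odf2 and Ap1m1 (0.98 each), with 1 predicted gene among them. That of Enpp6, Bcas1, Gpr17 and Myrf was most like Mif4gd (0.99), followed by Acadm (0.96), Acy1 (0.96), Emilin2 (0.95) and Ddr1 (0.95).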
